A study of Drosophila melanogaster with 3 samples.

Results

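The genes Smr (FBgn0263865) and spen (FBgn0016977) were examined for the intervals called on them in iCLIP of the Piwi protein Aubergine (Aub). Members were all called intervals whose gene ID was one of these 2, which gave 122 intervals for Smr and 99 for spen, 221 of 51962 intervals and 2 of 6502 genes in all. The data are 3 iCLIP libraries from Drosophila melanogaster germline stem cells in culture, which carried 1 copy of UASp-GFP-aub. Both third-chromosome copies had the bam∆86 allele, one with a hs-bam transgene and the other with nos-gal4, which drives UASp transgenes in the germline. GFP-tagged Aub was thus expressed in addition to any Aub of the cells' own. Without bam the stem cells' progeny do not differentiate. No drug was given, the 3 libraries form 1 group, and a control library was not analysed here. Whether each library had a culture of its own is not stated in the labels, and the spread over libraries may be technical. Both genes were chosen by their numbers of intervals in these same libraries, which are high in each, so their levels are given as a description, with no test.

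Smr, also called SMRTER, is the fly member of the SMRT and NCoR family of corepressors. These large nuclear proteins bind transcription factors such as the ecdysone receptor and Su(H), the DNA-binding factor of the Notch pathway, and bring histone deacetylases to their target genes. The spen gene (split ends) encodes a very large nuclear protein with RNA recognition motifs and a SPOC domain, and the mammalian SPOC domain binds SMRT. In flies spen acts in the EGF receptor, Wnt and Notch pathways. Aub itself binds piRNAs, the small RNAs that guide the silencing of transposons in the germline, and it also binds messenger RNAs in the germline.

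The iCLIP method joins protein to RNA with ultraviolet light (150 mJ/cm2 at 254 nm here, per the labels), purifies the protein and sequences the attached RNA. The deposited values are positions of called intervals. They carry no height, so the number of reads behind an interval is unknown. Replicates 1, 2 and 3 held 4007, 36157 and 11798 intervals in 1459, 6364 and 3310 genes. The 9.02-fold difference between replicates 2 and 1 bears on every count below. An interval, a gene or a position missing from replicate 1 cannot be told apart from one lost to that library's small number of intervals.

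The pairing of the 2 IDs with their symbols came with the choice of genes. RefSeq's table for the Release 6 assembly lists both symbols as protein-coding genes on the same chromosomes as in the files (X and 2L), without these IDs. The stretch between the first and the last interval measured 99.6% of the table's gene length for both. The identity of the cells could not be checked against germline or somatic markers, because the files pair gene IDs with no names and none of the markers listed could be matched.

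Smr held 21, 66 and 35 intervals in replicates 1, 2 and 3. These were 0.524% (95% Wilson interval 0.343 to 0.800), 0.183% (0.144 to 0.232) and 0.297% (0.213 to 0.412) of the libraries, with a mean of 0.334% ± 0.174 (SD, n = 3). The share was highest in the smallest library and lowest in the largest. By number of intervals Smr ranked 3 in replicate 1 (level with others, 3 genes in all), 9 in replicate 2 and 2 in replicate 3. By mean share it ranked 3 of 6502 genes. Without replicate 1 it kept rank 3, and with replicate 2 or replicate 3 left out it ranked 2 and 5.

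The spen gene held 13, 58 and 28 intervals in replicates 1, 2 and 3. These were 0.324% (95% Wilson interval 0.190 to 0.554), 0.160% (0.124 to 0.207) and 0.237% (0.164 to 0.343) of the libraries, with a mean of 0.241% ± 0.082 (SD, n = 3). As for Smr, the order of the shares ran against the size of the libraries. By number of intervals spen ranked 12, 12 and 6, level with others in replicates 1 and 3 (5 and 4 genes in all). By mean share it ranked 10 of 6502 genes, and 6 to 11 with each library left out. Both genes had intervals in all 3 libraries, as had 20.9% of the genes with any interval. Transcript abundance and length were not accounted for in these shares. Wilson intervals cover counting error only and treat intervals as independent.

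Smr had more intervals than spen in 3 of 3 libraries, by 1.62-, 1.14- and 1.25-fold, but this order depended on how the intervals were counted. Many neighbouring intervals in replicate 2 were separated by gaps of a few nucleotides. After intervals of a library were joined within 10 nt, an alternative chosen after seeing the data, Smr held 15, 37 and 26 stretches in replicates 1, 2 and 3 and spen held 13, 38 and 24. The covered length was 430, 1254 and 576 nt in Smr and 233, 1451 and 516 nt in spen. By both of these counts spen lay above Smr in replicate 2, so the data did not rank one gene over the other.

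Along the genomic length of both genes most intervals fell in a few blocks towards both ends, with long stretches between that had no interval in any library. Blocks were formed by joining all intervals of a gene within 1000 nt and are numbered from the 5′ end. This division was chosen after seeing the data. Smr had 6 blocks and spen had 8, and 3 blocks of each had intervals in every library. These 3 covered 8.88% of the bound stretch of Smr and held 112 of its 122 intervals. In spen they covered 7.38% and held 87 of 99. Blocks were drawn around these same intervals, so a small covered length follows in part from the division. It was not computed for other genes and does not set either gene apart. Positions are 1-based on build dm3. Its gene models were not used here, so the blocks were not assigned to exons, introns or UTRs. All distances are genomic and include any introns. An empty stretch may therefore be absent from the spliced transcript.

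**Figure D1:**
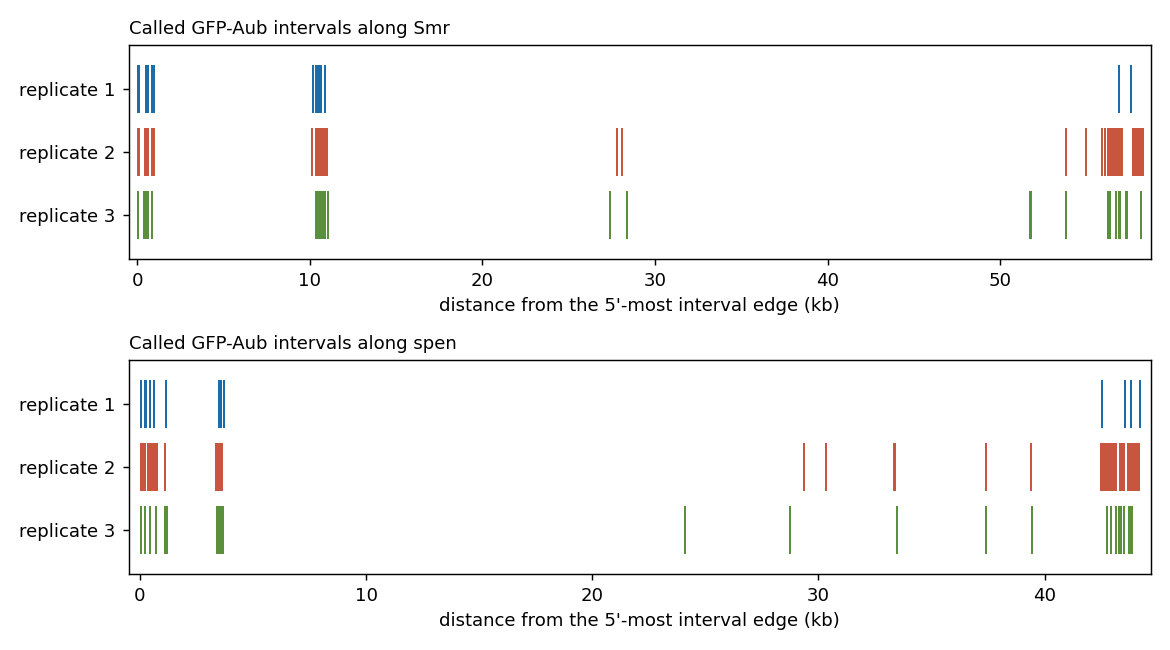
Each mark is 1 called interval, drawn with a minimum width so that short ones show; the horizontal axis is the distance in kb from the 5′-most interval edge of the gene and each row is a library. Both genes show intervals near the 5′ end in every library, long empty stretches in the middle, and a dense 3′ end in replicate 2.

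Smr lies on the minus strand of X, and its intervals spanned 58206 nt, from 12578255 to 12636460. Block 1, at the 5′ end (12635493 to 12636460), held 10, 10 and 8 intervals in replicates 1, 2 and 3. Block 2 (12625432 to 12626361) began 10099 nt further along and held 9, 13 and 11. In these 5′ blocks the libraries differed little in number, although replicate 2 held 9.02 times as many intervals as replicate 1 overall.

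Block 6 of Smr, at the 3′ end (12578255 to 12581522), held 2, 39 and 10 intervals. In replicate 1 that was 9.52% of the gene's intervals (95% Wilson interval 2.65 to 28.9). The share was 59.1% (47.0 to 70.1) for replicate 2 and 28.6% (16.3 to 45.1) for replicate 3. The counting interval of replicate 2 lay just above that of replicate 3 and above that of replicate 1, with every interval counted as independent. With intervals joined within 10 nt the shares were 13.3%, 54.1% and 26.9%. For these no counting intervals were computed, so whether the separation holds after joining is not known. The remaining 3 blocks held 4 intervals in replicate 2 and 6 in replicate 3. Replicate 1 had 0 of 21 intervals there, which allows a share of up to 14.3% if 3 counts are taken as the limit for a count of 0 (the upper Wilson bound is 15.5%). The longest empty stretches were 23365 nt between blocks 3 and 4 and 16279 nt between blocks 2 and 3. Inside the latter lay the only interval within the gene's stretch that the files give to another gene, an 11-nt interval of FBgn0264678 in replicate 2 (12612030 to 12612040, same strand). No interval of Smr or spen coincided in position with one assigned to a different gene.

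The intervals of spen, on the plus strand of 2L, spanned 44180 nt, from 159071 to 203250. Block 1 (159071 to 160228) held 6, 14 and 6 intervals in replicates 1, 2 and 3, and block 2 (162402 to 162767) held 3, 6 and 6. An empty stretch of 20354 nt followed. Blocks 3 to 7 held 6 intervals in replicate 2 and 6 in replicate 3. Replicate 1 had 0 of 13 there, which allows a share of up to 23.1% by the same limit (Wilson 22.8%). Of these blocks, 4 held intervals of both replicates 2 and 3. In block 6 those were a 27-nt interval in replicate 2 and a 25-nt interval in replicate 3 that both ended at 196453.

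Block 8 of spen, at the 3′ end (201514 to 203250), held 4, 32 and 10 intervals. Its share of the gene's intervals was 30.8% (95% Wilson interval 12.7 to 57.6) for replicate 1. Replicates 2 and 3 had 55.2% (42.5 to 67.3) and 35.7% (20.7 to 54.2). The order of the libraries was that seen in Smr, but for spen the counting intervals overlapped. By covered nucleotides the 3′ block held 12.0%, 48.2% and 31.2% of spen and 11.6%, 52.4% and 21.5% of Smr in replicates 1, 2 and 3.

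**Figure D2:**
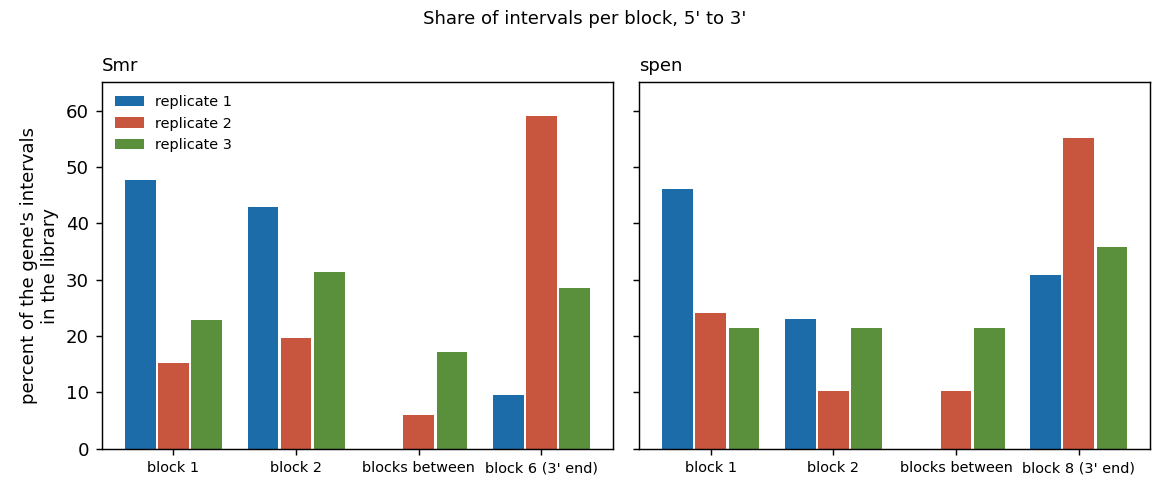
Bars give the percent of a gene's intervals that fell in each block or group of blocks, in order from 5′ to 3′, for each library. In both genes replicate 1 was highest in block 1 and replicate 2 in the 3′ block, where it reached 59.1% in Smr and 55.2% in spen.

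The same difference was seen in the mean position of the intervals, on a genomic scale from 0 at the 5′ end of the bound stretch to 1 at its 3′ end. The mean position in Smr was 0.18, 0.65 and 0.46 in replicates 1, 2 and 3. In spen it was 0.33, 0.63 and 0.53. Replicate 2 thus lay further 3′ than replicate 1 by 0.48 in Smr and 0.30 in spen. Among the 28 genes with at least 10 intervals in each library, which include both, 67.9% had a mean position further 3′ in replicate 2 than in replicate 1, and the median difference was 0.12. The difference in Smr was the largest of the 28, and 4 genes exceeded spen. Replicate 3 lay further 3′ than replicate 1 in 53.6% of these genes, by 0.28 in Smr and 0.21 in spen, against a median of 0.01. Replicate 2 lay further 3′ than replicate 3 in 67.9%, by 0.19 in Smr and 0.10 in spen, against a median of 0.10. The median position of the intervals, taken in place of the mean, gave other sizes. From replicate 1 to 3 it moved by 0.01 in Smr, as did the median of the 28 genes (0.01), and by 0.62 in spen. From replicate 1 to 2 it moved by 0.79 in Smr and 0.89 in spen, which was then the largest of the 28. By the mean, in replicate 1 Smr had the second most 5′ mean position of the 28 genes (rank 2), and in replicate 2 it ranked 16. These differences are between libraries of 1 group. The number of intervals differed between the libraries in the same order as the 3′ share, and its part in the difference was not tested.

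The positions recurred between libraries. An interval counted as recurring when at most 10 nt separated it from an interval that the other library had on that strand. Of the 21 Smr intervals of replicate 1, 19 recurred in replicate 2 (90.5%, 95% Wilson interval 71.1 to 97.3), against 59.9% of the intervals of all genes. In replicate 3, 17 of the 21 recurred (81.0%, 60.0 to 92.3), against 33.0%. Of the 35 Smr intervals of replicate 3, 24 recurred in replicate 2 (68.6%, 52.0 to 81.4), against 46.6%.

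For spen, 11 of the 13 intervals of replicate 1 recurred in replicate 2 (84.6%, 95% Wilson interval 57.8 to 95.7), and the share over all genes (59.9%) lay within that interval. In replicate 3, 8 of 13 recurred (61.5%, 35.5 to 82.3), against 33.0% of all intervals. Of the 28 spen intervals of replicate 3, 21 recurred in replicate 2 (75.0%, 56.6 to 87.3), against 46.6%. Over the 3 pairs the mean share was 80.0% ± 11.0 in Smr and 73.7% ± 11.6 in spen (SD, n = 3 pairs, which are not independent).

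A gene with many intervals offers more chances for a neighbour within 10 nt, so the same shares were taken over genes with at least 20 intervals in replicate 2. Pooled over those genes they were 67.5%, 34.1% and 57.7% for replicate 1 in 2, replicate 1 in 3 and replicate 3 in 2. With every interval counted as independent, the Smr interval lay above this value for both pairs with replicate 1 but included it for replicate 3 in 2. After joining within 10 nt, 13 of 15 Smr stretches of replicate 1 recurred in replicate 2 and 11 of 15 in replicate 3. For these no counting intervals were computed, so whether the separation holds after joining is not known. For spen the counting interval included it for replicate 1 in 2 and for replicate 3 in 2, and for replicate 1 in 3 its lower bound (35.5%) lay just above the pooled 34.1%. Taken gene by gene, 77 of 279 such genes exceeded Smr for replicate 1 in 2 and 94 exceeded spen. For replicate 1 in 3, 21 of 279 exceeded Smr and 50 exceeded spen. For replicate 3 in 2, 95 of 295 exceeded Smr and 63 exceeded spen. Both genes were therefore in the upper part of the range without standing outside it. In the library whose intervals were tested, such a gene needed no minimum beyond having an interval. The 279 genes held 1420 intervals in replicate 1 and the 295 held 3119 in replicate 3. Many of their shares thus rest on few intervals, which widens the range.

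**Figure D3:**
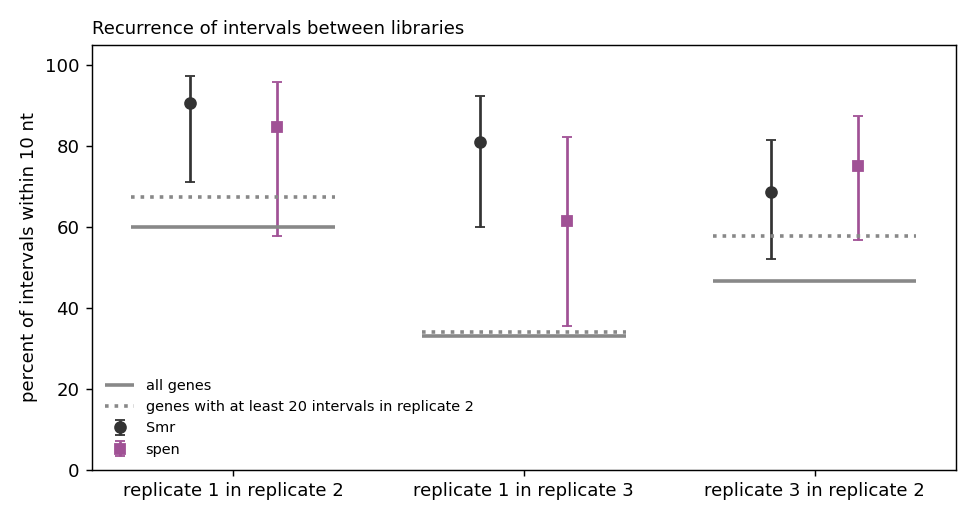
Points give the percent of intervals of one library with an interval of another within 10 nt for Smr (circles) and spen (squares), with 95% Wilson intervals; solid lines are all genes and dotted lines genes with at least 20 intervals in replicate 2. All 6 points lie above both lines, and 3 of the 6 intervals reach down to the dotted line.

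In the opposite direction, from a larger library into a smaller one, fewer intervals could recur. Of the 66 Smr intervals of replicate 2, 19 recurred in replicate 1 (28.8%, against 7.60% over all genes) and 30 in replicate 3 (45.5%, against 17.0%). Of the 58 spen intervals of replicate 2, 10 recurred in replicate 1 (17.2%, 95% Wilson interval 9.64 to 28.9) and 22 in replicate 3 (37.9%, 26.6 to 50.8). Pooled over the genes with at least 20 intervals in replicate 2 the shares were 12.4% and 22.3%, of which the first lay inside the spen interval. For replicate 2 in 1, 17 of 297 such genes exceeded Smr and 77 exceeded spen, and for replicate 2 in 3 the numbers were 15 and 33. Both other libraries had a neighbour for 17 of the 21 Smr intervals of replicate 1 (81.0%) and for 8 of the 13 spen intervals (61.5%), against 30.0% over all genes. For replicate 2 the corresponding numbers were 17 of 66 in Smr and 8 of 58 in spen, against 3.60%, and for replicate 3 they were 15 of 35 and 9 of 28, against 10.9%. At the other extreme, 34 of 66 Smr intervals and 34 of 58 spen intervals of replicate 2 had no neighbour in either other library, against 79.0% over all genes. Without a neighbour were also 11 of 35 and 7 of 28 intervals of replicate 3, against 52.3%, and 2 of 21 and 2 of 13 of replicate 1, against 37.1%. The shares with a neighbour in both or in neither were not computed for genes with at least 20 intervals in replicate 2. The distance from the all-gene values may therefore reflect the many intervals of both genes, which was not tested.

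Recurrence can also be given block by block. In the 5′ blocks 1 and 2 of Smr, 18 of the 19 intervals of replicate 1 recurred in replicate 2 and 16 in replicate 3, and 17 of the 19 intervals of replicate 3 recurred in replicate 2. In its 3′ block 1 of the 2 intervals of replicate 1 recurred in replicate 2, and 6 of the 10 of replicate 3 did. Of the 6 intervals of replicate 3 in the blocks between, 1 recurred in replicate 2. The 3′ block of Smr also had 1 of 2 intervals of replicate 1 recurring in replicate 3. In the 5′ blocks of spen, 7 of the 9 intervals of replicate 1 and 11 of the 12 of replicate 3 recurred in replicate 2, and 6 of the 9 of replicate 1 in replicate 3. In its 3′ block all 4 intervals of replicate 1 and 8 of 10 of replicate 3 recurred in replicate 2, and 2 of the 4 of replicate 1 in replicate 3. Of its 6 intervals of replicate 3 in the blocks between, 2 recurred in replicate 2. For spen the order of the 5′ and 3′ blocks thus differed between pairs. The differences between blocks were not tested.

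Joining intervals of all libraries within 50 nt gave 27 sites in Smr and 22 in spen. In Smr 6 sites had intervals in all 3 libraries, of which 5 lay in the 5′ blocks and 1 in the 3′ block. They held 19 of the 21 intervals of replicate 1, 36 of 66 of replicate 2 and 19 of 35 of replicate 3. Of the 14 Smr sites seen in a single library, 9 were from replicate 2, 4 from replicate 3 and 1 from replicate 1. In spen 7 sites were common to the 3 libraries, 5 in the 5′ blocks and 2 in the 3′ block, and they held 10 of 13, 31 of 58 and 16 of 28 intervals. Sites were not counted over all genes, so these numbers do not set either gene apart from others.

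The common sites with most intervals can be given by position. In Smr the site from 12625804 to 12626141 in block 2 held 6, 7 and 7 intervals in replicates 1, 2 and 3, and the site from 12635493 to 12635674 in block 1 held 4, 4 and 2. In these 5′ sites the libraries differed by at most 2 intervals. The only Smr site of the 3′ block common to all, from 12579428 to 12579925, held 1, 16 and 3. In spen the site from 162402 to 162701 in block 2 held 2, 6 and 6 intervals, the site from 159481 to 159814 in block 1 held 2, 7 and 2, and the 3′ site from 202699 to 203149 held 1, 10 and 3.

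**Figure D4:**
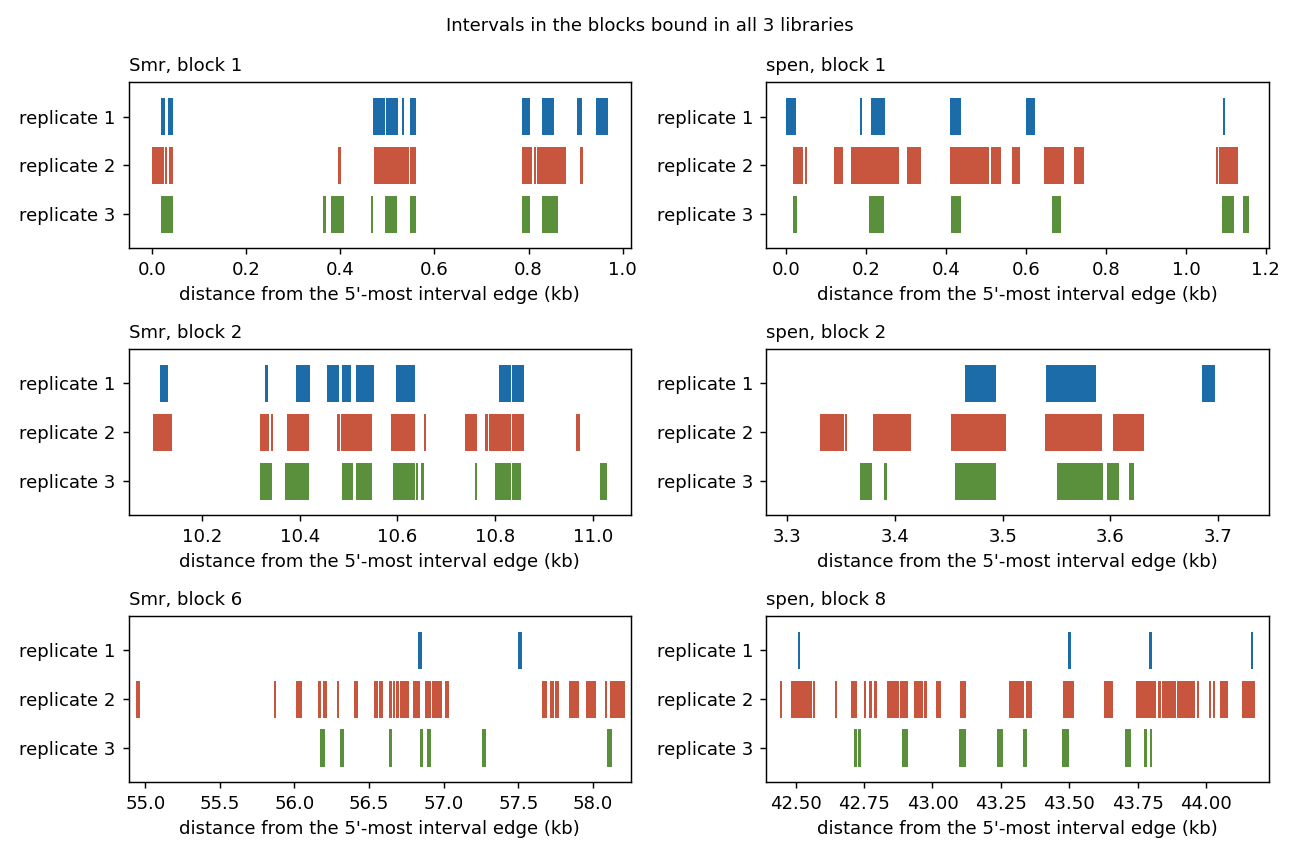
Each panel enlarges 1 of the 6 blocks with intervals in all libraries, with the distance in kb from the gene's 5′-most interval edge on the horizontal axis and 1 row per library; intervals of a few nucleotides are drawn with a minimum width. In blocks 1 and 2 of Smr many intervals of the 3 libraries line up; in block 1 of spen replicate 2 held 14 of the 26 intervals, and in the 3′ blocks it held 39 of 51 in Smr and 32 of 46 in spen.

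At the level of single nucleotides, 258 nt of Smr were covered in all 3 libraries, which was 60.0% of the 430 nt covered in replicate 1, against 18.6% over all genes. In spen the number was 139 nt, or 59.7% of the 233 nt of replicate 1. The commonly covered nucleotides of Smr formed 14 runs of 1 to 38 nt, all within blocks 1 (96 nt) and 2 (162 nt). The longest runs were 12625825 to 12625862 and 12625914 to 12625944 in block 2, of 38 and 31 nt. In spen they formed 8 runs, of which 4 in block 1 and 2 in block 2 made up 69 and 66 nt, while the 3′ block contributed 4 nt. Replicate 1 covered only 50 nt of the 3′ block in Smr and 28 nt in spen. The nucleotides common to all libraries there could not exceed these lengths. The longest were 162621 to 162657 and 159282 to 159315, of 37 and 34 nt. By pairs, replicate 2 covered 75.1% of the nucleotides of replicate 1 in Smr and 77.3% in spen, against 46.2% over all genes. Replicate 3 covered 63.0% and 59.7% of them, against 21.0%. Replicate 2 covered 65.8% of the nucleotides of replicate 3 in Smr and 65.9% in spen, against 34.3%. The values over all genes include genes with few intervals. None was computed for genes with at least 20 intervals in replicate 2, so how both genes compare with those is not known.

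Some interval edges in Smr were the same nucleotide in every library. The 12-nt interval from 12635900 to 12635911 in block 1 had both edges equal in all 3. The 5′ edges at 12635674 and 12625626 and the 3′ edges at 12636416 and 12625825 were also common to the 3 libraries. Pairs are given as replicates 1 and 2, 1 and 3, and 2 and 3. In Smr 14.3%, 23.8% and 11.4% of 5′ edges were equal, against 5.14%, 3.06% and 4.03% over all genes. For 3′ edges they were 19.0%, 23.8% and 11.4%, against 5.19%, 3.64% and 4.57%. Each Smr value rests on 3 to 5 edges, and genes with many intervals were not compared separately. The 25-nt interval from 12625602 to 12625626 was the same in replicates 1 and 2, and the 18-nt interval from 12635657 to 12635674 the same in replicates 1 and 3. No edge of spen was common to all 3 libraries, and no spen interval had both edges equal in any pair. Over all genes both edges were equal for 0.903%, 0.928% and 0.556% of the intervals of the smaller library for replicates 1 and 2, 1 and 3, and 2 and 3, so with 13 to 28 spen intervals a count of 0 is no contrast with Smr. In iCLIP the 5′ end of a read lies next to the crosslinked nucleotide, but these are edges of called intervals, so they need not mark crosslinks.

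The widths of the intervals differed between libraries. In Smr the median width was 25 nt in replicate 1, 11.5 in replicate 2 and 12 in replicate 3, and the widest interval was 38, 84 and 50 nt. In spen the median was 12, 17 and 19 nt, and the widest was 47, 119 and 43 nt. Replicate 2 thus held the widest intervals of both genes, and it also held most of the shortest. Intervals of 1 nt numbered 1, 6 and 1 in Smr and 0, 7 and 1 in spen. Over all genes they were 1.60%, 7.67% and 2.59% of the intervals of replicates 1, 2 and 3, and the median width was 25, 13 and 25 nt. The larger number of 1-nt intervals in replicate 2 was thus shared by the whole library. Gaps of at most 10 nt separated 29 of the 65 neighbouring pairs of Smr intervals in replicate 2 and 20 of the 57 in spen, against 6 of 20 and 0 of 12 in replicate 1. Over all genes, joining within 10 nt turned 36157 intervals into 27132 stretches in replicate 2 and 4007 into 3796 in replicate 1. In replicate 3 such gaps numbered 9 of 34 in Smr and 4 of 27 in spen. One stretch of contact can therefore count as several intervals, most often in replicate 2. In Smr this held for replicate 1 too, where 21 intervals became 15 stretches. After joining, the share of replicate 1 was 0.395% in Smr, against 0.524% before, and 0.342% in spen, against 0.324%.

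Both genes were long among heavily covered genes. The stretch between the first and last interval had a median of 22502 nt over the 297 genes with at least 20 intervals in replicate 2, and 57 of these were longer than Smr and 79 longer than spen. The densest window of 1000 nt held 47.6%, 34.8% and 31.4% of the Smr intervals in replicates 1, 2 and 3 and 38.5%, 34.5% and 28.6% of the spen intervals. Among such genes with at least 10 intervals in the library the medians were 38.5%, 44.0% and 40.0%. In replicate 2 the densest window held a larger share in 227 of 297 genes than in Smr and in 230 than in spen.

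The profile of shares over the 3 libraries was compared with the 1360 other genes that had intervals in all, by the Euclidean distance of log2 shares. The gene nearest to Smr was FBgn0261836 on 2L (distance 0.49) with 21, 70 and 25 intervals in replicates 1, 2 and 3. The gene nearest to spen was FBgn0010575 on 2R (distance 0.54) with 10, 45 and 26. At a distance of 0.79, spen was the third nearest gene to Smr, and 12 genes were nearer to spen than Smr was. The files give no names for the other IDs. For the same reason the lists of Smr partners, other corepressors, Spen family and m6A writer genes, Notch pathway genes and somatic gonad markers could not be counted, since 0 of their 28 symbols could be matched to an ID.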

How the data were processed

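The authors deposited, for each of the 3 libraries, a list of called intervals with a gene ID and a score. The deposited score is 0 on every row and was not used. The other deposited values, start and end positions, were taken as given. CASAVA 1.4 and TopHat2 2.0.13 and the build dm3 are named in the submitters' processing notes. Not given in the sources used here are the peak caller, its threshold, the annotation and whether the 5-nt random barcode was used against duplicates. Intervals were listed per library.

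Counts per gene used all rows. Positional comparisons used distinct intervals (3986, 35824 and 11685) as targets. Shares have 95% Wilson intervals. There were no groups to compare, so no test was run. In a simulation with 3986 intervals, the search for neighbours found 100% of the planted intervals. In a separate check, of replicate 1 against replicate 2, it equalled an exhaustive search for 300 of 300 intervals. The tools were matplotlib 3.10.9, scipy 1.17.1, pandas 2.3.3 and numpy 2.4.6 under Python 3.11.15.

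Smr and spen, the lists and the rule for named items (both genes, list members, nearest genes, and sites common to all libraries) were chosen with earlier results of these data known. Of the rule's 3 nearest genes, the first is printed for each. No sequence of the build was at hand, so none is shown.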

Additional observations from a re-analysis of the deposited data

How the results depend on the processing

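Of 64 alternative values, 53 moved by less than the spread between libraries or, for counts, by at most 1.5 times. For recurrence the spread was the SD over the 3 pairs, which are not independent. A reversal could be scored only for the difference in mean position between replicates 2 and 1, where none was seen. The 122 Smr intervals became 78 when intervals within 10 nt were joined (chosen after seeing the data), and the 99 of spen became 75. Mean recurrence (80.0% in Smr, 73.7% in spen) fell to 16.5% and 3.75% when the 5′ edge had to be the same nucleotide. For spen it was 86.2% within 50 nt and 89.6% among intervals at or above the median width. Leaving out each library in turn gave 68.6% to 90.5% in Smr and 61.5% to 84.6% in spen. The 6 common sites of Smr became 9 with intervals joined within 10 nt. They became 13 and the 7 of spen 14 with at least 2 of 3 libraries required, by construction, and leaving out each library gave 6 to 13 and 8 to 13, the highest without replicate 1. The mean share in the 3′ block (32.4% in Smr, 40.6% in spen) ranged from 19.0% to 43.8% and from 33.2% to 45.4% with each library left out, and was lowest without replicate 2. A mean over 3 libraries cannot move by 1 SD when a single library is dropped. For the shares, those values were therefore bound to fall among the 53. So were the interval counts with rows also assigned to another gene left out, since neither gene had such rows. No paired analysis was possible because the libraries form 1 group. The depth in reads is unknown, so absence from replicate 1 sets no limit on binding.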
